A study of Mus musculus with 72 samples.

Results

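Among 17500 reporter integrations on chromosomes 1 to 19 of mouse embryonic stem cells, 194 were both strongly expressed and alone, with no other mapped integration of any pool within 100 kb. They were chosen by their own expression and by their position. Of the 17857 integrations of the series, 3079 on these chromosomes had no other integration within 100 kb, and 194 of those 3079 (6.30%) had a level above 2, that is, more than 4-fold above the median of their pool. The remaining 2885 isolated integrations, at a level of 2 or below, were the comparison. The integrations nearest to the strong isolated reporters were on average 2.19-fold higher than those nearest to the other isolated reporters, although at least 100 kb lay between. Where the nearest integration was not itself isolated, the difference was 1.43-fold.

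The reporters were read by TRIP, in which many copies of 1 reporter gene, each with its own random barcode, are integrated in a population of cells and counted together. All carried the mPGK promoter, taken from the mouse gene for phosphoglycerate kinase, an enzyme of glycolysis made in nearly every cell. The cells were of the EBRTcH3 line, mouse embryonic stem cells that express a tetracycline-controlled transactivator from the ROSA26 promoter, kept in conditioned medium with LIF, the MEK inhibitor PD0325901 and the GSK-3 inhibitor CHIR99021. The 6 groups used here, mPGK-A to mPGK-F, are pools of such cells that had been sorted for a low eGFP signal and grown for 5 days, then for 7 days as small pools. Each pool was divided into 2 cultures for 7 more days, and these are technical replicates of the same clones. The labels give no control group, and the pools differ in which integrations they hold, not in genotype or treatment. No endogenous gene was measured, so the cell type could not be checked against marker genes.

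A reporter placed in different parts of a genome gives different amounts of RNA from the same promoter, which is known as a position effect. Chromatin is arranged in domains, of which gene-rich, open ones tend to allow transcription, while compact or lamina-bound ones tend to lower it. The piggyBac transposon that carried these reporters favours open chromatin when it integrates. The number of integrations in a region can therefore depend on chromatin, which was not analysed here.

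The level of an integration is on the log2 scale and compares its part of the RNA reads with its part of the genomic DNA reads of the same culture, averaged over both cultures and set to 0 at the pool median. A value of 0.5 was added to each RNA count. The listed barcodes of a pool summed to 3386477 to 3693449 DNA reads and 2880244 to 3508366 RNA reads per culture. Levels given for a single culture are set to 0 at the median of that culture, so that the 2 of them do not average exactly to the level. Across all 17500 integrations 3073 (17.6%) had a level above 2, and among the 14421 that had a neighbour within 100 kb the number was 2879 (20.0%). Since the rule used the level, these shares describe the choice and were not tested.

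A barcode of 16 bases identifies each integration, and the barcodes of the 8 strongest members are given because each is the molecule that was counted in RNA and in DNA. They are random tags within the reporter and not sequence of the integration site, and they are written in capitals as listed, since every base serves to tell them apart. Positions are those of the mouse build mm9. None of the 8 barcodes stood on a second integration of the series.
mPGK-D, chr5:28119015, minus strand: ACTCAGGGATAAGTCA
mPGK-D, chr4:114669700, plus strand: AGAGTTACCGGTGAGC
mPGK-D, chr3:63635256, plus strand: TTATTTTCTTCGCATC
mPGK-A, chr5:110900609, minus strand: ATTGCCTTTTACTCTC
mPGK-C, chr1:67194224, plus strand: AGGGGAATGCACCATT
mPGK-E, chr14:56474600, minus strand: AATATCCCAAGCCGTA
mPGK-F, chr11:105815118, minus strand: TTCATTCACCTCAACG
mPGK-F, chr5:119762498, plus strand: TAGGGGGAACAGGGAA

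The strong isolated reporters came from every pool. There were 26 in mPGK-A, 36 in mPGK-B, 36 in mPGK-C, 24 in mPGK-D, 36 in mPGK-E and 36 in mPGK-F, which is between 4.61% of the isolated integrations (mPGK-D) and 8.16% (mPGK-C). The mean share was 6.33% ± 1.23 (SD, n = 6 pools). Their levels ran from 2.00 to 6.27 with a median of 2.70, or 6.51-fold above the pool median. The lower and upper quartiles were 2.30 and 3.37, so most of them lay close to the threshold: 124 were between 2 and 3, 70 were above 3 and 25 were above 4, or 16-fold. The median level per pool lay between 2.55 (mPGK-B) and 2.89 (mPGK-A). The other isolated integrations had a median level of -1.45, with lower and upper quartiles of -2.85 and -0.10, and the strong integrations that did have a neighbour within 100 kb had a median of 2.86.

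The highest of all was the mPGK-D reporter at chr5:28119015. It had 360 and 302 DNA reads and 7720 and 7971 RNA reads in cultures 1 and 2, and a level of 6.27, or 77.1-fold above the median of its pool. Its levels in the separate cultures were 6.11 and 6.35. The nearest integrations on either side, 335.6 kb and 338.8 kb away, had levels of 0.97 and 0.82, so it stood more than 5 log2 units above both.

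The mPGK-D reporter at chr4:114669700 came second with a level of 5.44, but on few DNA reads. It had 31 and 56 DNA reads and 532 and 588 RNA reads, which gave 5.79 in culture 1 and 5.02 in culture 2. One neighbour, 127.3 kb to the left, had a level of -5.05, with 33 RNA reads to 3241 DNA reads over both cultures. The neighbour on the right lay 824.4 kb away at 2.68, so the 2 sides differed widely.

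Far more reads stood behind the mPGK-D reporter at chr3:63635256. Its 1521 and 1283 DNA reads and 15982 and 16524 RNA reads gave a level of 5.24, with 5.08 and 5.32 in the cultures. Both flanking integrations were below the pool median, at -2.04 on the left (472.1 kb) and -1.39 on the right (114.7 kb).

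At chr5:110900609 the mPGK-A reporter had 780 and 867 DNA reads and 9967 and 10927 RNA reads, for a level of 5.21. Its nearest neighbour, 245.0 kb away in mPGK-D, had a level of 3.81 and was itself one of the 194. The neighbour on the other side, at 280.7 kb, had 1.45, so this integration lay in a stretch where 3 separate reporters in a row were above their pool medians.

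At chr1:67194224 the mPGK-C reporter had 746 and 830 DNA reads and 10358 and 10726 RNA reads. Its level was 5.21, with 5.19 and 5.21 in the cultures. The left neighbour, 285.7 kb away, had 1.78 and the right one, 967.1 kb away, had -3.53.

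The mPGK-E reporter at chr14:56474600 (444 and 329 DNA reads, 3627 and 4010 RNA reads) reached 4.86. Its nearest neighbour, 303.7 kb away in mPGK-D, had a level of 2.70 and was likewise strong and isolated. The mPGK-F reporter at chr5:119762498 (747 and 450 DNA reads, 6388 and 5637 RNA reads) reached 4.76, and the neighbour 266.7 kb to its right, from the same pool, was almost as high at 4.58. In both places the strong expression was shared by a second barcode.

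The 5 others among the 12 highest differed as much in their surroundings. The mPGK-F reporter at chr11:105815118 (level 4.80) and the mPGK-E reporter at chr14:118629380 (level 4.70, 91 and 41 DNA reads) lay between neighbours below the median. The mPGK-C reporter at chr10:107135016 reached 4.67 on 2129 and 2130 DNA reads, between neighbours at -3.03 and -1.67. The mPGK-C reporter at chr17:45733550, with 3908 and 4102 DNA reads and 35507 and 34265 RNA reads, reached 4.59, and its neighbours had 4.03 and 0.77. The mPGK-B reporter at chr4:24643063 reached 4.47 between neighbours at -2.63 and -2.39. Of the 12, then, 6 had at least 1 flanking integration below -1 and 6 had at least 1 above 1. These counts overlap: the reporters at chr4:114669700 and chr1:67194224 are in both, and those at chr5:28119015 and chr14:118629380 are in neither. The same counts were not made over all members or over the other isolated integrations, so they have no share to compare with.

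At the threshold the values on both sides were nearly the same. The 5 members closest to it had levels of 2.00 (mPGK-F, chr2:139890303), 2.00 (mPGK-D, chr1:142084596), 2.01 (mPGK-F, chr12:120335360), 2.01 (mPGK-B, chr14:92927071) and 2.01 (mPGK-B, chr5:145859432). The 5 isolated integrations just below it had 1.99 (mPGK-B, chr8:39721551), 1.99 (mPGK-D, on chromosome 18), 1.98 (mPGK-B, chr2:34586561), 1.98 (mPGK-F, chr7:63216012) and 1.97 (mPGK-F, chr15:62005340). The gap across the threshold was smaller than the difference that these integrations showed between cultures.

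High levels were largely seen in both cultures. When isolated integrations were chosen by culture 1 alone, 191 of 3079 (6.20%) were above 2, and 155 of these 191 (81.2%) were also above 2 in culture 2, where 194 of all 3079 isolated integrations (6.30%) were above 2. Per pool the share lay between 69.4% (mPGK-B) and 90.9% (mPGK-D). The median of the 191 was 2.70 in culture 1 and 2.74 in culture 2, and 190 of them were above 0 in culture 2. Chosen by culture 2, 155 of 194 (79.9%) were above 2 in culture 1. As the cultures were divided late from 1 pool, this measures how well the reading repeats and not how a fresh integration at the same place would behave. It was not tested.

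**Figure D1:**
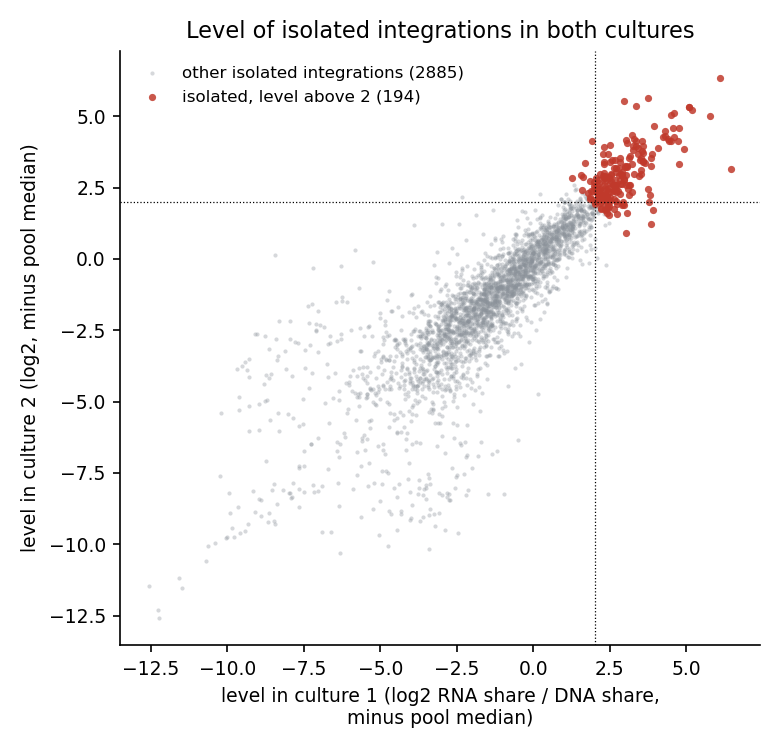
Level of each isolated integration in culture 1 (horizontal) and culture 2 (vertical), both on the log2 scale relative to the median of its pool, with the 194 strong integrations in red, the 2885 others in grey and dotted lines at 2. The red points lie along the diagonal in the upper right, where 155 of the 194 are above 2 in both cultures, and the grey points spread widely at low levels, where few RNA reads were counted.

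All 194 were above 0 in both cultures, and the lowest single reading was 0.90. The rule used the mean of these same cultures, so this only describes the choice. All 2879 strong integrations with a neighbour within 100 kb were above 0 in both cultures too. In 39 members 1 culture fell at or below 2. The absolute difference between the cultures, before the medians are subtracted, had a median of 0.43 and exceeded 1 in 28 of 194 (14.4%), against a median of 0.54 and 775 of 2885 (26.9%) among the other isolated integrations. Strong integrations with a neighbour within 100 kb repeated better, with a median of 0.33 and 274 of 2879 (9.52%) over 1. Of those, 2438 (84.7%) were above 2 in both cultures, against 155 (79.9%) of the 194. The largest difference was that of the mPGK-F reporter at chr11:105815118, with 21 DNA reads in culture 1 and 334 in culture 2, 700 and 1142 RNA reads, and levels of 6.45 and 3.17. The mPGK-C reporter at chr15:51648457 came next, at 3.86 on 131 DNA reads and 1.21 on 534. After it came the mPGK-C reporter at chr6:83665452, at 2.97 on 294 DNA reads and 5.53 on 63. In each of these 3 the culture with fewer DNA reads gave the higher level. As the DNA count is the denominator of the level and the 3 were picked for their difference, this is only described.

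The DNA count, which measures how large a clone had grown in the pool, is the denominator of the level, so its relation to the choice is only described. Members had a median of 1274.5 DNA reads over both cultures, from 87 to 12525, and the other isolated integrations 1614, from 104 to 46205. The median was below that of the others in 4 of 6 pools: 1581 against 1747 in mPGK-C, 1578.5 against 1722 in mPGK-D, 1135 against 1640 in mPGK-E and 1081 against 1809.5 in mPGK-F. It was above it in mPGK-A (1647 against 1577.5) and mPGK-B (1300.5 against 1256). Members had a median of 3194 RNA reads, from 376 to 69772, and the others 203, from 0 to 22161. In 10 of 194 members (5.15%) and 97 of 2885 others (3.36%) the lower of both DNA counts was under 100. The part of low DNA counts in single high levels was not tested. With at least 100 DNA reads in both cultures (184 members) the first comparison of surroundings below gave 1.20 log2 units. That value concerns the level of the nearest integration and not the members' own levels.

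The first comparison asked whether reporters around the strong isolated ones were high as well, using the level of the nearest integration of any pool. The rule chose each member by its own level and not by that of its neighbour, but 17 of the 194 nearest neighbours are members themselves, so their levels had been used to choose them. In mPGK-A these neighbours had a mean level of -0.09 around strong reporters and -1.07 around the others. The pairs of means were -0.31 and -1.19 in mPGK-B, 0.02 and -1.31 in mPGK-C, 0.31 and -1.32 in mPGK-D, 0.28 and -1.03 in mPGK-E, and -0.35 and -1.003 in mPGK-F. The groups of 6 pool means did not overlap. Over pools the neighbours of strong reporters had a mean level of -0.03 ± 0.28 (SD, n = 6 pools) and those of the others -1.15 ± 0.14. The difference was 1.13 ± 0.36 log2 units, higher in 6 of 6 pools (exact two-sided sign-flip permutation test over pools, adjusted p = 0.031, the smallest that 6 pools allow, with Benjamini-Hochberg adjustment over 3 comparisons). Neighbours can belong to other pools, so the 6 differences are not fully independent. Neighbours that are not isolated themselves could not be members. With these alone (127 strong and 1421 other isolated reporters) the means were -0.03 ± 0.39 and -0.55 ± 0.16 (SD, n = 6 pools), and the difference was smaller, at 0.52 ± 0.30 log2 units, from 0.05 in mPGK-F to 0.97 in mPGK-A (higher in 6 of 6 pools, adjusted p = 0.031 in the same exact test). Where the neighbour was isolated itself (67 and 1464), the means were 0.02 ± 1.01 and -1.74 ± 0.26 and the difference was 1.76 ± 1.06. Such neighbours made up 34.5% of those of strong reporters and 50.7% of those of the others. This division was chosen after seeing the data. Restricted to neighbours from another pool, the difference was 1.08. With isolation by 200 kb in place of 100 kb there were 46 strong reporters, and the adjusted p of this comparison and of the 2 that follow was 0.0625 in the same exact test.

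**Figure D2:**
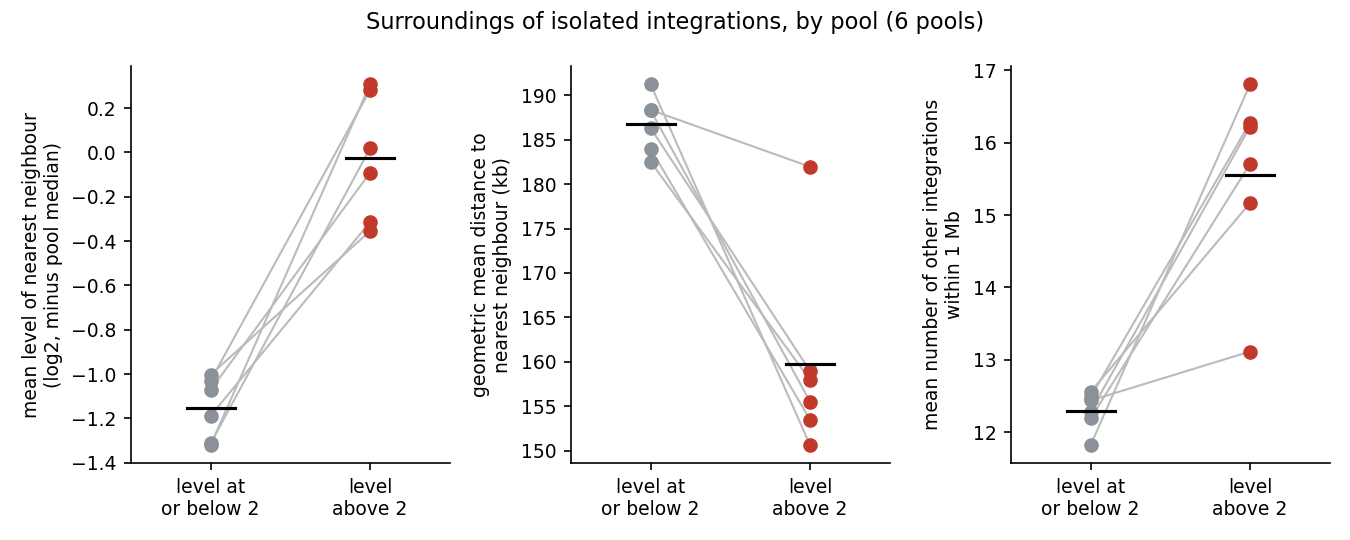
Mean level of the nearest integration (left, log2 relative to the pool median), geometric mean distance to it (middle, kb) and mean number of other integrations within 1 Mb (right) for isolated integrations at or below 2 (grey) and above 2 (red). Each point is a pool, grey lines join the values of a pool, black bars are means of the 6 pools and the vertical axes do not start at 0; every line runs the same way within a panel.

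Around strong isolated reporters the level was therefore near the pool median and not high. Their neighbours had a median of 0.12, with quartiles of -1.42 and 1.74 and a range from -7.97 to 5.21, against a median of -1.01 with quartiles of -2.64 and 0.54 for the neighbours of the others. Of the 194 nearest neighbours 39 (20.1%) were above 2, against 233 of 2885 (8.08%) around the other isolated integrations. At the other end 34 (17.5%) were below -2, against 969 (33.6%). In 17 of 194 (8.76%) the neighbour was higher than the strong reporter itself. Strong integrations with a neighbour within 100 kb had it at a median distance of 12.6 kb. These neighbours had a mean level of 1.40 ± 0.07 (SD, n = 6 pools). For integrations at or below 2 with a neighbour within 100 kb that mean was -0.17 ± 0.04. The difference there was 1.57 ± 0.08, against 1.13 ± 0.36 among isolated integrations, so higher neighbours are not particular to isolated reporters. These differences were not compared in a test. The mean of all integrations on these chromosomes was -0.18 ± 0.03. Over pools the neighbours of strong isolated reporters had a mean of -0.03 ± 0.28, between that and 1.40. In mPGK-B (-0.31) and mPGK-F (-0.35) their mean was below -0.18.

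The integrations on both sides were also considered together. Their mean level was higher around strong reporters by 1.07 log2 units. For 193 of the 194 an integration was mapped on each side, and the gap that the strong reporter divided had a median of 443.1 kb, against 546.6 kb for the others. Both flanking integrations were above the pool median in 56 of 193 (29.0%) and both below it in 58 (30.1%), with 1 on each side of it in 79 (40.9%). Among 2867 other isolated integrations, both were above the median in 362 (12.6%) and both below it in 1408 (49.1%). At least 1 flank was above 2 in 58 of 193 (30.1%), against 418 of 2867 (14.6%). The mean level of the nearest neighbour was 0.03 where it lay on the same strand as the strong reporter and -0.11 on the opposite strand, a difference that was not tested.

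Some strong isolated reporters had very low integrations on at least 1 side. The mPGK-C reporter at chr8:62091248 had 438 and 199 DNA reads, 1354 and 1262 RNA reads and a level of 3.61, while its flanks were at -5.61 (308.7 kb) and -8.93 (593.4 kb), the lowest mean of the flanks among the members. The nearer of these had 149 DNA reads and no RNA read, so that its value is set by the 0.5 added to each count. The mPGK-A reporter at chr2:92032223, on 3760 and 3655 DNA reads and 11264 and 10708 RNA reads, had a level of 3.11 with 2.99 and 3.21 in the cultures. Its neighbour 138.1 kb away had 3641 DNA reads, 47 RNA reads and a level of -5.41, and the other flank was at -4.33. The other 3 of the 5 lowest were in mPGK-B at chr19:31157005 (level 2.04, flanks -5.30 and -4.47) and chr16:58040745 (2.47, flanks -7.97 and -0.69) and in mPGK-C at chr1:78597611 (3.85, flanks -2.53 and -5.93). The flank at -7.97, the lowest of all nearest neighbours of members, had 697 DNA reads and no RNA read, so its value too is set by the added 0.5.

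Others stood between integrations that were above the pool median on both sides. The mPGK-C reporter at chr7:25942738 had 139 and 203 DNA reads, 295 and 395 RNA reads and a level of 2.49, and its flanks were at 1.95 and 4.42. The mPGK-F reporter at chr2:30432523 (2.95) had flanks at 2.26 and 4.05, and the mPGK-C reporter at chr17:31541540 (3.16) had flanks at 2.06 and 4.07. The mPGK-B reporter at chr7:52073416 (2.06) lay between 2.33 and 3.49, and the mPGK-F reporter at chr5:119762498 completed the 5 with the highest flanks. Not all of these flanks were above 2: the left flank of the first was just under it and that of the last was at 1.13. In 5 of 193 members (2.59%), a set that is not the same as these 5, both flanks were above 2, against 21 of 2867 others (0.73%).

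In 12 places 2 strong isolated reporters were next to each other on the chromosome, up to 912.4 kb apart. How often other isolated integrations stood next to a strong isolated one was not counted, so this number has no share to compare with. The closest pair lay on chromosome 16, at 30820910 (mPGK-D, 4.07) and 30934870 (mPGK-E, 2.59), 114.0 kb apart. Chromosome 7 held 3 of the 5 closest: 25942738 (mPGK-C, 2.49) with 26066601 (mPGK-A, 4.42), 51948469 (mPGK-F, 2.33) with 52073416 (mPGK-B, 2.06), and 149110733 (mPGK-D, 2.35) with 149266164 (mPGK-C, 2.82). The fifth was on chromosome 4, at 129496528 (mPGK-E, 3.19) and 129660721 (mPGK-D, 3.16). Each of these 5 pairs joined 2 different pools, so the 2 levels of a pair came from separate clones. Both levels are high by the rule that chose them. A neighbour from another pool is usual here: the nearest neighbour came from another pool for 84.0% of members and 83.2% of the other isolated integrations.

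The difference in level reached well beyond the nearest neighbour. Integrations 100 to 200 kb away had a mean level of 0.13 ± 0.35 (SD, n = 6 pools) around strong isolated reporters and -0.96 ± 0.15 around the others. From 200 to 500 kb the means were 0.04 ± 0.40 and -0.88 ± 0.06, and from there to 1000 kb -0.01 ± 0.17 and -0.81 ± 0.08. The difference was 1.10 in the nearest of these classes. It fell to 0.68 between 1000 and 2000 kb, to 0.33 between 2000 and 5000 kb, and to 0.20 between 5000 and 10000 kb. It was positive in 6 of 6 pools at each of these distances, which were not tested and share many integrations with one another.

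**Figure D3:**
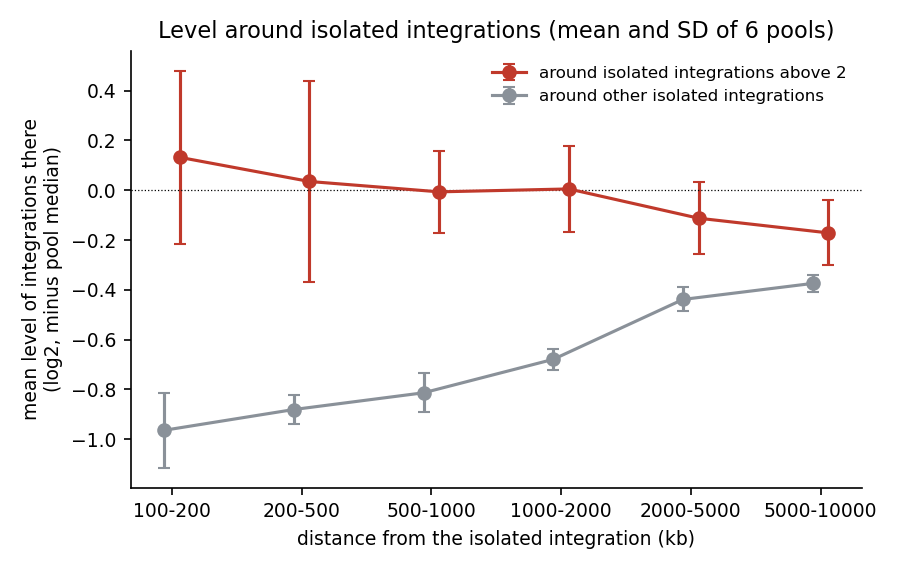
Mean level of integrations of any pool (log2 relative to the pool median) against their distance in kb from strong isolated integrations (red) and from the other isolated integrations (grey); points and bars are the mean and SD of 6 pools. The red line stays near 0 out to 2000 kb while the grey line rises from -0.96 towards it, and the distance between the lines shrinks from 1.10 to 0.20.

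The second comparison asked whether strong isolated reporters were isolated to the same degree. The distance to the nearest integration, as the geometric mean of a pool, was 155.5 kb for strong reporters and 188.3 kb for the others in mPGK-A, 153.5 and 184.0 kb in mPGK-B, 150.6 and 191.2 kb in mPGK-C, 158.0 and 182.5 kb in mPGK-D, 159.0 and 186.3 kb in mPGK-E, and 181.9 and 188.3 kb in mPGK-F. Every pool mean of strong reporters was below every pool mean of the others. On the log10 scale the difference was -0.069 ± 0.030 (SD, n = 6 pools), a 0.854-fold distance, lower in 6 of 6 pools (exact two-sided sign-flip permutation test, adjusted p = 0.031). The rule set the lower end of 100 kb for both. The median distance over all integrations was 139.8 kb for the 194 and 166.3 kb for the 2885.

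The share of strong reporters fell with distance. With the nearest neighbour between 100 and 125 kb away it was 72 of 784 isolated integrations (9.18%). Up to 150 kb it was 35 of 500 (7.00%), up to 200 kb 41 of 692 (5.92%), up to 300 kb 28 of 595 (4.71%), and beyond that 18 of 508 (3.54%). Within these classes the neighbours of strong reporters were higher by 1.26, 0.26, 1.25, 1.00 and 1.21 log2 units. They were higher in 6, 4, 5, 5 and 5 of 6 pools in the same order, and the classes were not tested singly.

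The third comparison counted other integrations over a wider stretch, within 1 Mb on either side. Strong isolated reporters had a mean of 13.1 such integrations in mPGK-A, 15.2 in mPGK-B, 16.2 in mPGK-C, 15.7 in mPGK-D, 16.3 in mPGK-E and 16.8 in mPGK-F. The other isolated integrations had 12.4, 12.6, 12.3, 12.2, 12.5 and 11.8 in the same order. The mean over pools was 15.5 ± 1.32 (SD, n = 6 pools) against 12.3 ± 0.27, a difference of 3.25 ± 1.47 integrations, higher in 6 of 6 pools (exact two-sided sign-flip permutation test, adjusted p = 0.031). The difference was 0.68 in mPGK-A and at least 2.61 in the other pools. The median was 14 for strong reporters and 11 for the others, against 18 over all integrations and 22 for strong integrations with a neighbour within 100 kb. At the scale of 1 Mb the strong isolated reporters were thus less sparse than isolated integrations usually were.

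Isolated integrations in the emptiest stretches were seldom strong. With 0 to 2 other integrations within 1 Mb 2 of 123 (1.63%) were above 2, with 3 to 5 it was 5 of 407 (1.23%), with 6 to 8 it was 27 of 491 (5.50%), with 9 to 12 it was 45 of 695 (6.47%) and with 13 or more it was 115 of 1363 (8.44%). The median level of isolated integrations in these classes was -2.31, -2.36, -1.73, -1.33 and -0.57. When neighbour levels were compared within 10 classes of similar density, the emptiest with 0 to 4 other integrations within 1 Mb and the fullest with 23 to 51, the neighbours of strong reporters were higher by 0.82 log2 units in place of 1.13.

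**Figure D4:**
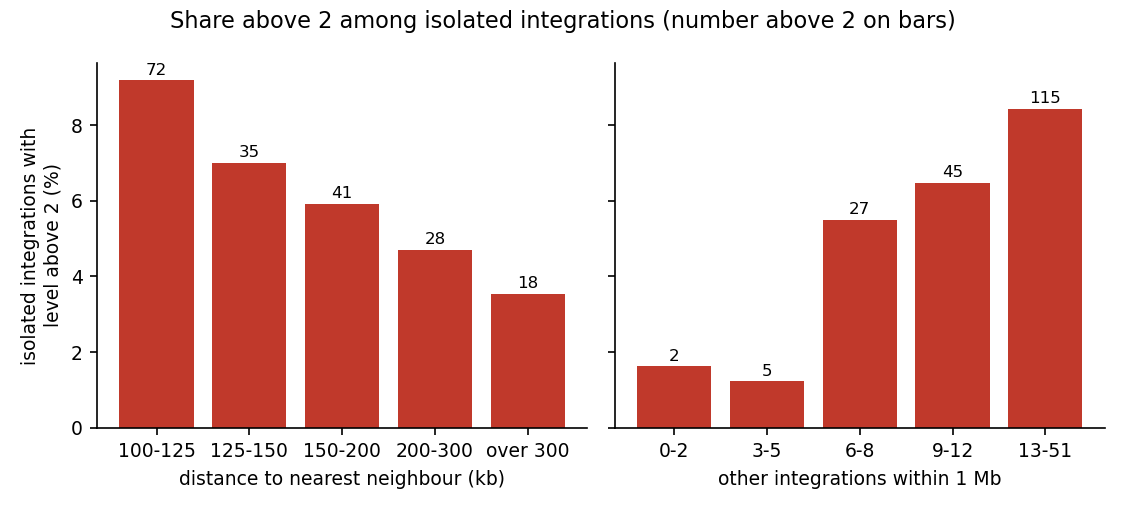
Percentage of isolated integrations with a level above 2, by distance to the nearest integration in kb (left) and by number of other integrations within 1 Mb (right), with the number above 2 on each bar. The share falls from 9.18% to 3.54% with distance and is 1.63% and 1.23% in the 2 emptiest classes against 8.44% in the fullest.

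The exceptions, strong reporters far from any other, are few. The mPGK-A reporter at chr12:115372583 had 529 and 735 DNA reads, 1351 and 1214 RNA reads and a level of 2.59, with no other integration within 1 Mb and the nearest 1177 kb away. It is the only 1 of the 194 members without one, and 12 of the 2885 others had none, which are similar shares. The next farthest was an mPGK-F reporter on chromosome 18 (level 2.28, nearest 672.8 kb). The mPGK-D reporter at chr10:9907743 (2.24), the mPGK-E reporter at chr7:66482834 (4.43) and the mPGK-F reporter at chr16:39874120 (2.46) had their nearest neighbours at 445.2, 423.7 and 389.1 kb. The mPGK-E reporter was the strongest of these 5, with 172 and 322 DNA reads, 1543 and 1967 RNA reads and levels of 4.73 and 4.12 in the cultures.

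Strong isolated reporters were found on all 19 chromosomes, from 5 each on chromosomes 18 and 19 to 15 each on chromosomes 1 and 2. As a share of the isolated integrations of a chromosome they had a median of 6.43%. Chromosome 16 had the highest share, 13 of 129 (10.1%, exact Clopper-Pearson 95% interval 5.48 to 16.6%), and chromosome 7 the second, 14 of 160 (8.75%, 4.87 to 14.2%). Chromosome 3 had the lowest, 7 of 193 (3.63%, 1.47 to 7.33%), followed by chromosome 13 with 6 of 164 (3.66%, 1.35 to 7.79%). The intervals cover counting error only, without differences between pools, and they overlap for all of these chromosomes. Differences between chromosomes were not tested, so no order of chromosomes is drawn from these shares. On chromosome 11, a gene-rich chromosome, 27.2% of the integrations with a neighbour within 100 kb were above 2, the highest value of the 19. Of its isolated integrations 9 of 140 (6.43%, 2.98 to 11.9%) were, a share that is itself the median of the 19. The interval is wide, and the 2 shares were not compared in a test. The neighbours of strong isolated reporters had a higher mean level than those of the others on 19 of 19 chromosomes, and the difference taken within chromosomes was 1.10.

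**Figure D5:**
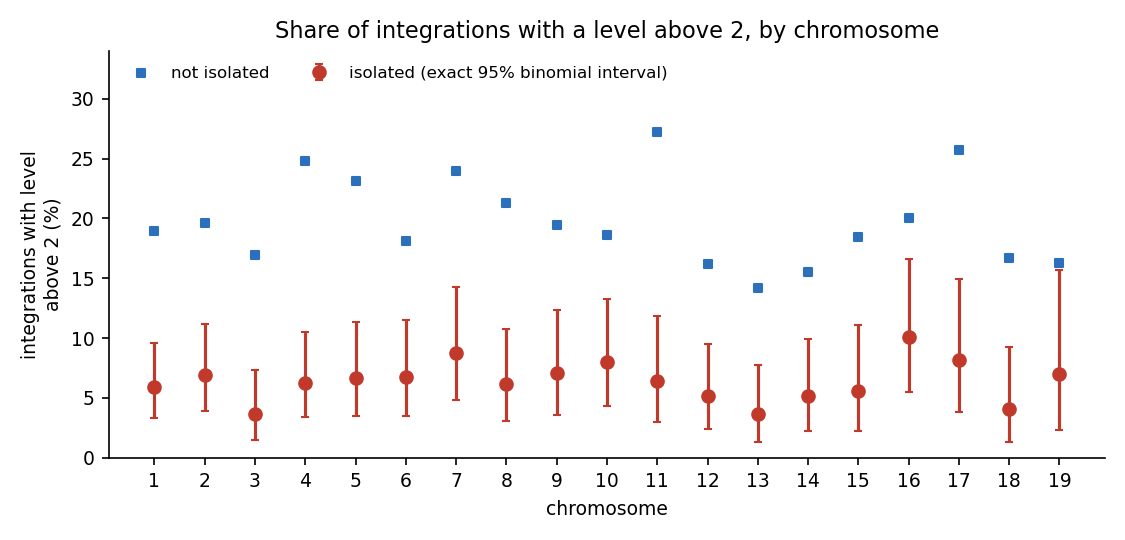
Percentage of integrations with a level above 2 on each of chromosomes 1 to 19, for isolated integrations (red circles, bars are exact 95% binomial intervals) and for those with a neighbour within 100 kb (blue squares). The red points lie between 3.63% and 10.1% with wide, overlapping intervals, and each is below the blue point of its chromosome.

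Strand and barcode composition differed from those of the others in different directions from pool to pool. The plus strand held 89 of 194 (45.9%) and 1421 of 2885 others (49.3%), with a share below that of the others in 3 of 6 pools. The GC content of the barcode was 41.1% ± 11.5 (SD over 194 barcodes) against 41.3% ± 11.9 (SD over 2885), and it was above that of the others in 2 of 6 pools. A barcode that was listed more than once in the series was carried by 3 members (1.55%) and by 166 others (5.75%), and without these integrations the neighbour level differed by 1.14. What lies at the sites in the genome, such as genes or chromatin marks, was not analysed here.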

How the data were processed

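The table that the authors deposited gives, per integration, raw counts of DNA and RNA reads in the 2 cultures of each pool, with barcode, mm9 position and strand. The submitters' processing notes name Bowtie2 2.0 and mm9. How the 2 PCRs of a culture were combined, how barcodes were filtered and the base from which positions count are not given in the sources used here.

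Levels used a pseudocount of 0.5 RNA reads and totals over the listed barcodes of a pool. RNA and DNA were paired within a culture, as the replicate numbers in the labels do. Differences were taken within a pool, as means, and tested over 6 pools with an exact two-sided sign-flip test (64 patterns, smallest p 0.031) at an adjusted p threshold of 0.05. Pools hold separate clones, while cultures are technical replicates. Python 3.11.15, numpy 2.4.6, pandas 2.3.3, scipy 1.17.1 and matplotlib 3.10.9 were used.

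The members, lists and classes were chosen with earlier results of these data known. Integrations were named as the 12 highest members, the 5 on each side of the threshold, the 5 farthest from a neighbour, the 5 with the lowest and the 5 with the highest flanks, the 3 with the largest difference between cultures and the 5 closest pairs. Distances to genes and GC content around sites were planned but need an mm9 reference and were not analysed here. Alternatives were another pseudocount, isolation distance or threshold, filters on DNA reads, other neighbours, medians, and leaving out cultures or pools.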

Additional observations from a re-analysis of the deposited data

Results flagged for a closer look

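The distance to the nearest neighbour of strong isolated reporters stood apart in mPGK-F, at 5.26 on the log10 scale (181.9 kb), while the other 5 pools lay between 150.6 and 159.0 kb. Its gap to the next pool was large for a group of 6 values. Chance gives such a gap in about 1 in 20 groups, and 14 groups of values were checked. In the same pool the strong reporters had the most other integrations within 1 Mb (16.8) and the lowest mean level of the nearest neighbour (-0.35).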

How the results depend on the processing

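The number of strong isolated reporters depends on the rule: it was 565 with an isolation distance of 50 kb and 46 with 200 kb, and 449 with a threshold of 1 and 70 with a threshold of 3. At 200 kb the 3 comparisons no longer passed (adjusted p = 0.0625, exact sign-flip permutation test over pools): the neighbour level differed by 1.24, the log10 distance by -0.027 and the number of integrations within 1 Mb by 2.15, in the same direction in 5, 5 and 6 of 6 pools. In the other tested alternatives the adjusted p stayed at 0.031. The neighbour level differed by 0.52 where the neighbour was not isolated itself, by 1.76 where it was, and by 0.82 to 1.25 in the rest, lowest within density classes and with the nearest neighbour of the same pool. Leaving out 1 culture gave 191 to 194 members, and differences of 1.09 to 1.13, -0.077 to -0.072 and 3.28 to 3.30 in the same order. Leaving out 1 pool gave 1.03 to 1.22, -0.079 to -0.062 and 2.91 to 3.77, without a test, since 5 pools cannot reach 0.05; that these were judged by value alone was decided after seeing the data. With no replicate block, that is, with reads of the cultures summed before the ratio in place of paired RNA and DNA, there were 187 members and differences of 1.15, -0.072 and 3.50. Comparisons within chromosomes, distance classes and density classes, by isolation of the neighbour, with both cultures above 2 and with at least 100 DNA reads were chosen after seeing the data. The smallest p of 0.031 means that 1 pool in the other direction ends a call. Single levels that rest on few DNA reads are imprecise.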

Other observations

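On chromosome X, which the choice of members left out, 167 integrations had no other within 100 kb and 12 of these (7.19%) had a level above 2. On chromosome Y 2 integrations were isolated and 0 were above 2.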
